A study of Homo sapiens with 24 samples.

Results

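The lysosomal gene set described here comprised 36 genes: GPNMB, the 3 MiT/TFE transcription factors TFEB, TFE3 and MITF, and 32 genes for lysosomal membrane proteins, hydrolases and their cofactors, the proton pump and autophagy. All 36 were found by symbol among the 61860 gene rows of the count tables. GPNMB was chosen by its measured fall in xenografts of mice on high-fat feed, so its values in that comparison are a description without a test. The other 35 genes were listed by function, to ask whether further lysosomal genes fell with it. RNA-seq was done on OE33, a cell line from a human adenocarcinoma of the lower esophagus, in 4 experiments with 3 treated and 3 control libraries each, 24 in all.

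In the diet experiment, male BALB/c-nu mice, which lack a thymus and so accept human cells, were bought at 4 weeks of age. For 8 weeks they received either a normal diet (ND) or one high in fat (HFD). OE33 cells were then injected under the skin, the mice stayed on the same diets, and tumors were taken after 21 days. In the culture experiments, OE33 cells were transfected with plasmids. They received HA-tagged TRIM15 (HA-TRIM15) or empty vector (EV) in the TRIM15 experiment. In each knockdown experiment they received an shRNA plasmid (shYY2 or shFOXRED1) or shControl, and every experiment had its own controls. Cells were collected 48 h after transfection in the TRIM15 experiment and 72 h after it in the knockdown experiments. Such xenografts can also hold mouse stroma and immune cells other than T cells. Their share was not measured here, and whether their reads entered the counts is not given in the sources used here. Which shRNA sequence was used for sequencing is not given in the sources used here, nor whether replicates came from separate cultures, so p-values measure the spread between these libraries, which may be technical in the culture experiments.

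Lysosomes break down proteins, glycans and lipids with hydrolases that work at acid pH, and the V-ATPase pumps the protons that keep them acid. TFEB, TFE3 and MITF are related factors that bind E-box sequences in promoters of lysosomal and autophagy genes. Their activity is set largely by where the protein sits in the cell: mTORC1 keeps them in the cytoplasm while nutrients are ample, and they enter the nucleus on starvation or lysosomal damage. Their mRNA is therefore not a measure of their activity. GPNMB is a transmembrane glycoprotein of melanosomes and lysosomes, a known target of MITF in melanocytes and known to be raised in macrophages under lysosomal stress.

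Because these factors are known to bind short E-box sequences, promoters of the set were searched for such letters, from 250 bases before to 50 after the transcription start, in RefSeq sequences of build GRCh38.p14. Promoters were on hand for 26 of the 36 members. Both strands were searched for TCACGTG, called the extended E-box here, and for TCATGTG, called the M-box. GPNMB held no extended E-box but had M-box letters at 2 places. The following windows of 30 bases run 5′ to 3′ on the strand of the gene, with the matched letters in capitals, and were chosen because these genes carry the results below.
GPNMB, first M-box (chr7:23246641-23246670, plus strand): tgagtcataagCACATGAgttgtaagaggt
GPNMB, second M-box (chr7:23246702-23246731, plus strand): cttaataccatCACATGAtcctccccgagg
GRN, M-box (chr17:44345069-44345098, plus strand): tgtcccgacgtCACATGAttctccaatcac
MCOLN1, extended E-box (chr19:7522571-7522600, plus strand): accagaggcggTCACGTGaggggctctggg
CTSA, extended E-box (chr20:45891281-45891310, plus strand): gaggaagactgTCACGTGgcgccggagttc
CTSD, extended E-box (chr11:1763956-1763985, minus strand): ccggccgcgccCACGTGAccggtccgggtg
GAA, extended E-box (chr17:80101493-80101522, plus strand): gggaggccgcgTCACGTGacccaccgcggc
ATP6V0D1, extended E-box (chr16:67481199-67481228, minus strand): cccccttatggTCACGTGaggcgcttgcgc

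The extended E-box was found in 6 of 26 members, or 23.1%: ATP6V0D1, CTSA, CTSD, GAA, LAMP1 and MCOLN1. It was found in 27% of 74 further lysosomal genes and in 4.49% of 27305 promoters of all genes. M-box letters were found in CD63, CTSA, GPNMB and GRN, or 15.4% of members, against 3.59% of all promoters. The longer letters AANATGGCG, a form of the site that YY1 is known to bind and that the related factor YY2 may share, were found in GUSB alone among the members, or 3.85%, against 13.5% of the further lysosomal genes and 3.85% of all promoters. A match is a description of letters and not a bound site, and it does not show which factor, if any, binds there.

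Library totals ranged from 14299807 to 45994561 counts. All 36 members passed the filter on low counts in every experiment. The targeted genes followed their labels: TRIM15 was at 0 in all EV libraries and at 5.41 to 11.4 CPM (counts scaled to library size by TMM) with HA-TRIM15, YY2 was at 0.595 to 0.720 CPM with shYY2 against 2.32 to 2.36, and FOXRED1 was at 8.83 to 11.2 CPM with shFOXRED1 against 17.2 to 17.7. All 8 epithelial markers reached 1 CPM in at least 1 xenograft.

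Of the members, GPNMB differed most by diet, the contrast that chose it. In the ND xenografts it stood at 18.4, 18.0 and 17.7 CPM, and in the HFD xenografts at 1.45, 1.80 and 1.57 CPM. The groups were far apart, with 381 to 859 counts per library in ND against 33 to 60 in HFD. The log2 fold change of HFD against ND was -3.50 ± 0.10 (SE, n = 3 per group), or 11.3-fold lower. Of 16991 genes tested and named, 4 had a lower log2 fold change, and none of those averaged 1 CPM or more. In bulk RNA, fewer cells of a type and less RNA per cell cannot be told apart.

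**Figure D1:**
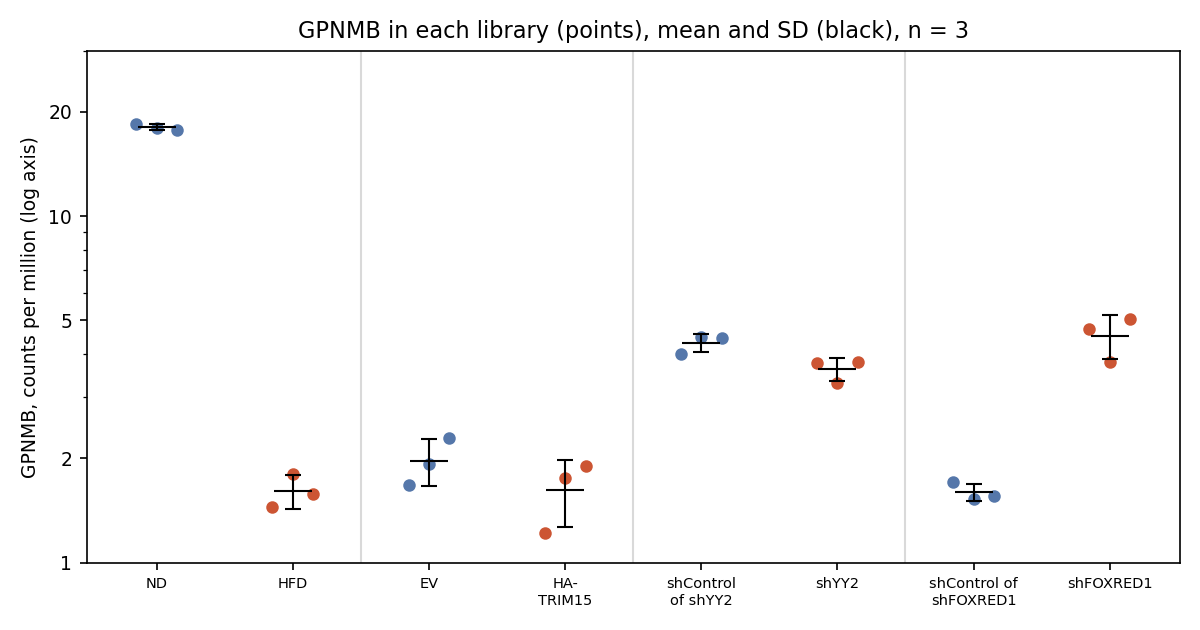
GPNMB in CPM on a log axis, with each of the 24 libraries as a point and the mean and SD of 3 libraries in black. Blue points are controls and red points treated libraries. The 3 ND xenografts sit near 18 CPM, while every other library lies between 1.22 and 5.06 CPM.

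In culture GPNMB was low throughout, and it changed past the threshold in the FOXRED1 knockdown. It stood at 4.71, 3.79 and 5.06 CPM with shFOXRED1 and at 1.71, 1.53 and 1.56 CPM with shControl, without overlap. It rose 2.80-fold, a log2 fold change of 1.49 ± 0.22 with an adjusted p of 5.7e-05 by edgeR's quasi-likelihood test, adjusted by Benjamini-Hochberg over all genes. Of the 15715 genes tested and named in that experiment, 99 had a higher log2 fold change. With shYY2 it stood at 3.77, 3.30 and 3.79 CPM against 4.01, 4.49 and 4.44 CPM, with groups that did not overlap but a log2 fold change of -0.25 ± 0.13 that missed the threshold (adjusted p = 0.099). With HA-TRIM15 it stood at 1.22, 1.76 and 1.90 CPM against 1.68, 1.93 and 2.29 CPM, which overlapped (log2 fold change -0.31 ± 0.21, adjusted p = 0.31). The tables were normalized separately, and the 2 shControl groups stood at 4.31 ± 0.26 CPM beside shYY2 and 1.60 ± 0.095 CPM beside shFOXRED1 (SD, n = 3).

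Genes of macrophages and melanocytes were read in the xenografts, since both cell types are known to express GPNMB. Of 16 macrophage markers, 11 had a count in at least 1 xenograft and 2 reached 1 CPM, CD14 and ITGAM. The complement genes C1QA, C1QB and C1QC, TYROBP and AIF1 were at 0 in all 6 xenografts. The summed level of the macrophage list was 14.9 to 15.0 CPM in HFD and 15.9 to 17.3 CPM in ND. Of 7 melanocyte markers, MLANA and PMEL reached 1 CPM and TYR was at 0, with sums of 4.97 to 6.01 CPM in HFD and 6.24 to 6.84 CPM in ND. The macrophage, melanocyte and fibroblast lists each held 1 gene called lower. Of 8 epithelial markers, 5 were called higher and 1 lower, with sums of 13708 to 13902 CPM in HFD and 12434 to 12710 CPM in ND. Fibroblast markers summed to 24.5 to 27.6 CPM in HFD and 31.2 to 34.4 CPM in ND, nearly all of it COL1A1, while no endothelial or adipocyte marker reached 1 CPM. These are counts on human genes, and the handling of mouse reads is not given in the sources used here. What part other cells had in the GPNMB values was not tested.

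Per kilobase of exon, GPNMB was also among the scarcest members. It ranked 35th or 36th of 36 in every group, at 0.265 to 2.99 CPM per kilobase. PSAP, the precursor of the saposins that help degrade sphingolipids, ranked 1st in all 8 groups at 217 to 414 CPM per kilobase. SQSTM1, the autophagy receptor p62, and GRN, the precursor of the granulins, ranked between 2 and 6. TFE3 was the most abundant MiT/TFE factor in every group at 16.4 to 21.3 CPM per kilobase. MITF lay at 2.09 to 3.69 and TFEB at 1.34 to 2.88 CPM per kilobase.

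**Figure D2:**
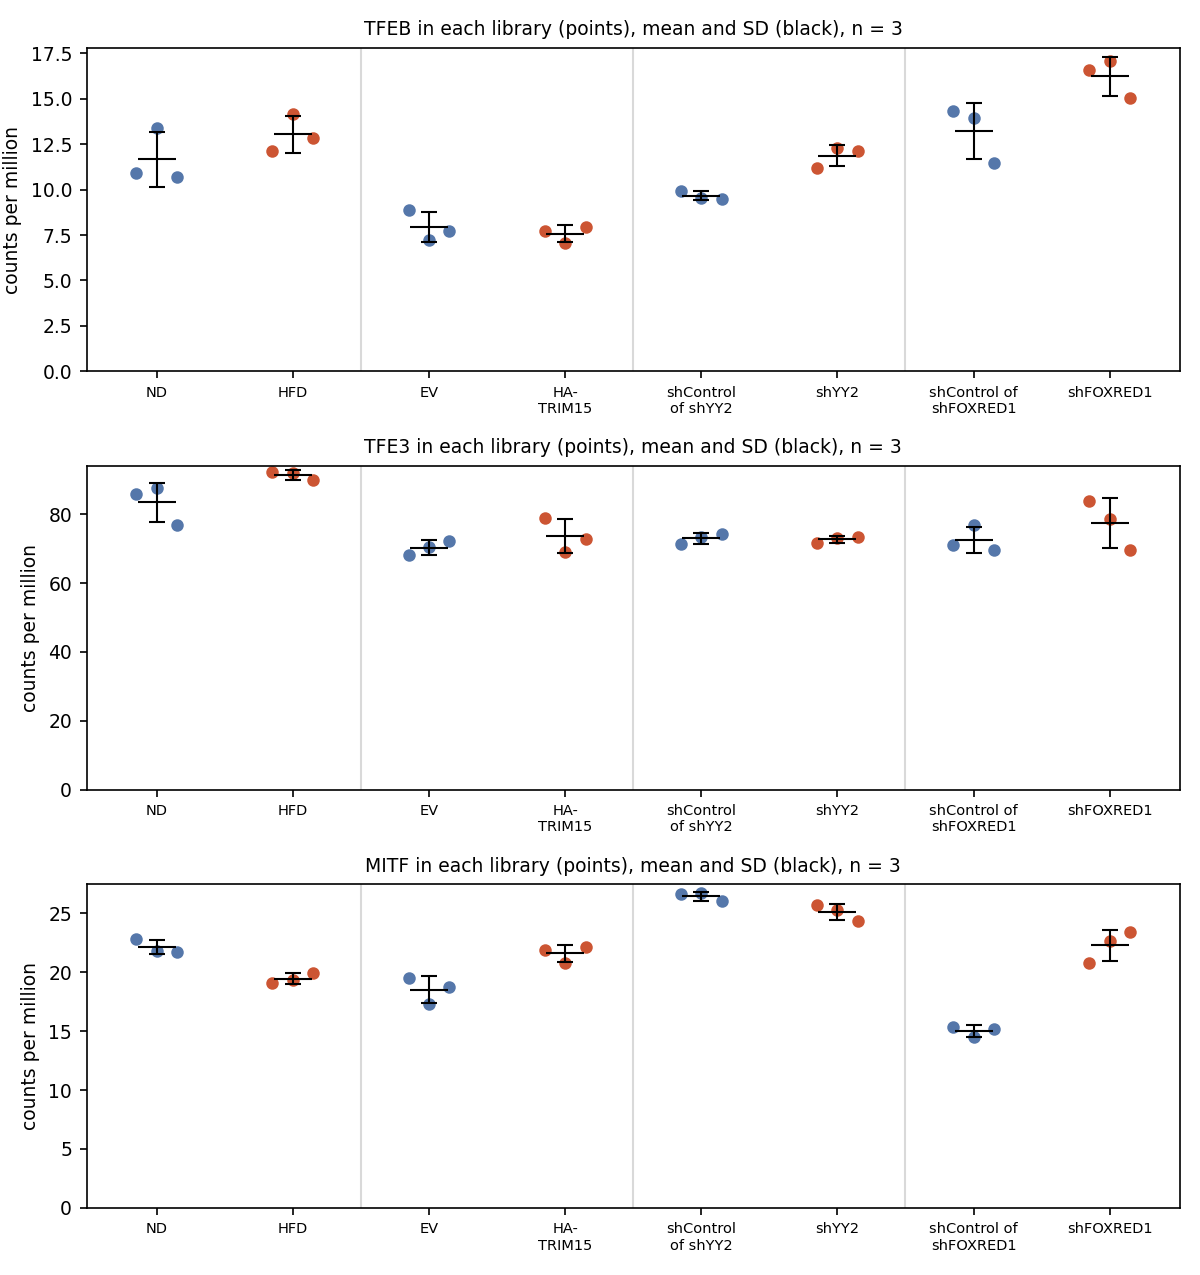
TFEB, TFE3 and MITF in CPM, with each library as a point (blue control, red treated) and the mean and SD of 3 libraries in black, on axes that start at 0. MITF lies higher with shFOXRED1 than in its controls, and TFE3 stays between 68.0 and 92.4 CPM in all 24 libraries.

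The MiT/TFE genes moved little beside GPNMB. MITF was at 19.1, 19.3 and 19.9 CPM in HFD and at 22.8, 21.8 and 21.7 CPM in ND, a log2 fold change of -0.18 ± 0.057. The groups did not overlap, but the call was lost without ND replicate 1 (adjusted p = 0.063) or HFD replicate 1 (0.061). In the same xenografts TFE3 had a log2 fold change of 0.12 ± 0.046, and its call was lost without ND replicate 3 (0.11), HFD replicate 1 (0.090) or HFD replicate 2 (0.069). TFEB had one of 0.13 ± 0.092 and was not called, but was past the threshold without ND replicate 2 (0.022).

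MITF rose with shFOXRED1, from 15.3, 14.5 and 15.2 CPM to 20.8, 22.7 and 23.4 CPM (log2 fold change 0.57 ± 0.098, adjusted p = 0.00021). The groups were well apart. TFEB rose with shYY2, from 9.94, 9.57 and 9.48 CPM to 11.2, 12.3 and 12.1 CPM (log2 fold change 0.30 ± 0.086, adjusted p = 0.0054). With shFOXRED1 TFEB had a log2 fold change of 0.29 ± 0.11 that missed the threshold (adjusted p = 0.054), and was past it without shFOXRED1 replicate 3 (0.020). MITF was called higher with HA-TRIM15 (log2 fold change 0.22 ± 0.068, adjusted p = 0.029), but not without EV replicate 2 (0.14), EV replicate 3 (0.085) or HA-TRIM15 replicate 3 (0.072).

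In the diet comparison, 13 members were called higher and 15 lower, GPNMB among the latter, so members besides GPNMB were called both ways. Over all 17012 genes tested, 49.5% were called, 25.6% higher and 23.9% lower. The median log2 fold change was -0.025 over the members, GPNMB included, and -0.012 over all genes tested. Since this contrast chose GPNMB, nothing is read from these shares. The plot of members by diet shows GPNMB far outside the range of the others, which ran from -0.62 to 0.49. A log2 difference of 0.5 or more was found in 2 members, GPNMB and ATP6V0D1.

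**Figure D3:**
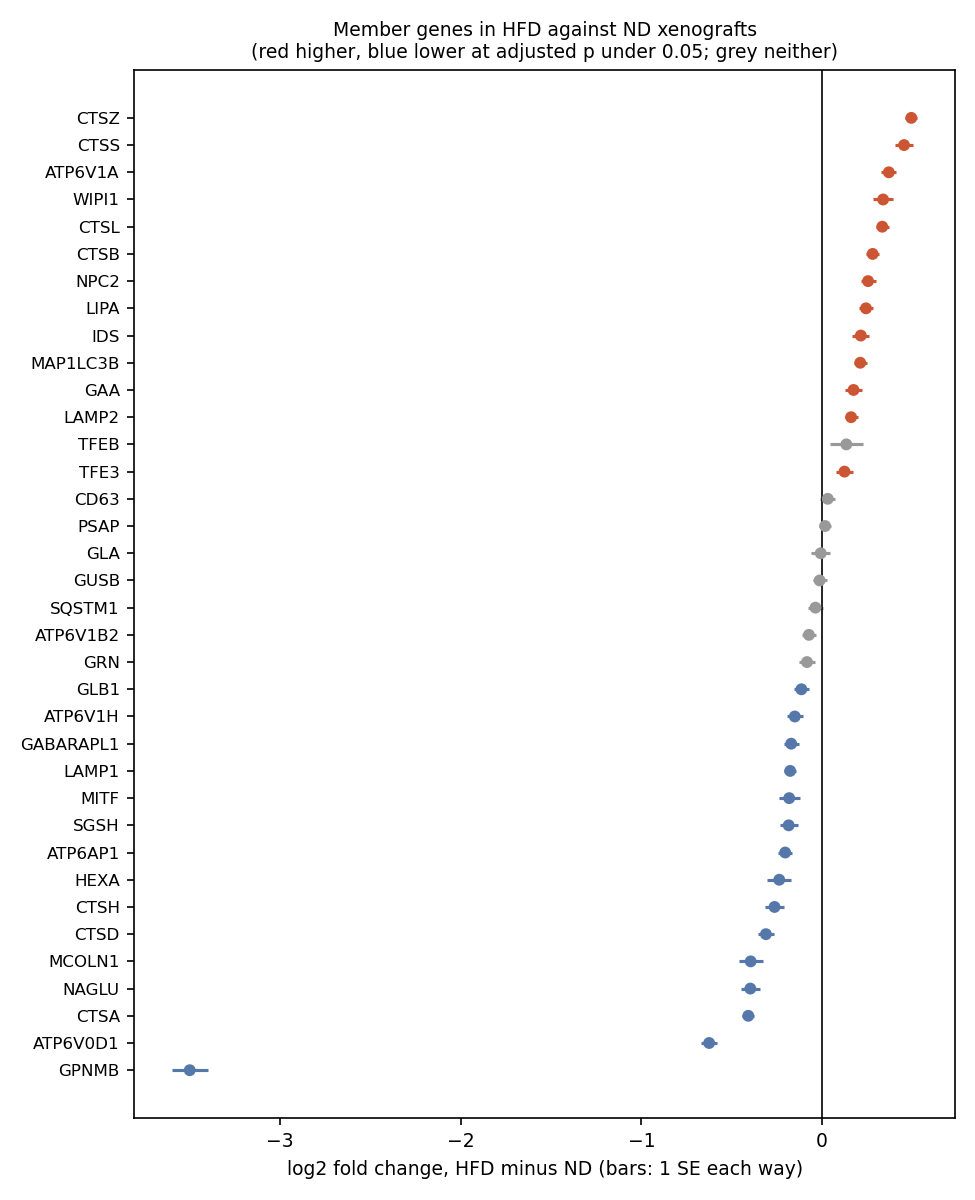
Log2 fold change of HFD minus ND for the 36 members, sorted, with bars of 1 SE each way and colours for calls at an adjusted p under 0.05. GPNMB lies at -3.50 and all other members lie between -0.62 and 0.49.

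The cathepsins, the main lysosomal proteases, were split by diet. CTSZ, a carboxypeptidase, was at 182, 181 and 176 CPM in HFD against 127, 129 and 127 CPM in ND, a log2 fold change of 0.49 ± 0.034. CTSS was at 81.8, 80.8 and 85.6 CPM against 61.3, 56.5 and 65.0 CPM, or 0.45 ± 0.048. CTSL and CTSB, both endopeptidases of the papain family, had log2 fold changes of 0.33 ± 0.036 and 0.28 ± 0.035. All 4 were above ND in every HFD library. CTSA, which trims peptides and shields the galactosidase GLB1, was at 294, 279 and 292 CPM against 380, 385 and 382 CPM, or -0.41 ± 0.034. CTSD, an aspartic protease, and CTSH, an aminopeptidase, had log2 fold changes of -0.31 ± 0.042 and -0.26 ± 0.054. The 3 lower cathepsins were below ND in every HFD library.

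The V-ATPase subunits were split as well. ATP6V0D1, of the membrane part of the pump, was at 44.4, 44.2 and 44.1 CPM in HFD against 64.8, 68.8 and 71.1 CPM in ND (log2 fold change -0.62 ± 0.044). ATP6V1A, the catalytic subunit, was at 75.6, 73.8 and 75.6 CPM against 61.0, 55.7 and 58.1 CPM (0.37 ± 0.042). The groups did not overlap for either subunit. The accessory protein ATP6AP1 (-0.20 ± 0.037) and the regulatory subunit ATP6V1H (-0.15 ± 0.045) were called lower, the latter not without ND replicate 1 (adjusted p = 0.059) or HFD replicate 2 (0.064), and ATP6V1B2 was not called (-0.07 ± 0.040), but was past the threshold without ND replicate 2 (0.040).

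Among membrane proteins, MCOLN1, the calcium channel of lysosomes, was at 13.5, 12.9 and 13.6 CPM in HFD against 18.4, 17.5 and 16.8 CPM in ND (log2 fold change -0.39 ± 0.067). LAMP1 (-0.18 ± 0.034) was called lower and LAMP2 (0.16 ± 0.036) higher, though both coat the same membrane. The tetraspanin CD63 was not called (0.03 ± 0.042).

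Of the 9 glycan and lipid hydrolases, 3 were called higher and 4 lower by diet. NAGLU and SGSH, both of heparan sulfate breakdown, had log2 fold changes of -0.40 ± 0.052 and -0.18 ± 0.050, while IDS, which acts on the same glycan, had 0.21 ± 0.047. HEXA (-0.24 ± 0.066) degrades GM2 ganglioside and GLB1 (-0.11 ± 0.040) removes galactose. LIPA, the acid lipase for cholesteryl esters, and GAA, the acid glucosidase for glycogen, had log2 fold changes of 0.24 ± 0.036 and 0.17 ± 0.047. GLA, which cleaves globosides, and GUSB, a glucuronidase, were not called (both -0.01). The call of SGSH was lost without HFD replicate 3 (adjusted p = 0.054), that of HEXA without ND replicate 2 (0.051), and that of GLB1 without ND replicate 1 (0.081), ND replicate 2 (0.074), HFD replicate 2 (0.14) or HFD replicate 3 (0.060).

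The remaining members were mixed too. NPC2, the soluble cholesterol carrier, had a log2 fold change of 0.25 ± 0.042, while GRN (-0.08 ± 0.045) and PSAP (0.02 ± 0.032) were not called. WIPI1, which binds forming autophagosomes, and MAP1LC3B, the LC3 protein of their membrane, had log2 fold changes of 0.34 ± 0.056 and 0.21 ± 0.037. GABARAPL1, of the same protein family as LC3, had -0.17 ± 0.042, and SQSTM1 was not called (-0.04 ± 0.043).

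Most members with the extended E-box were called lower in HFD. Of the 6 members that held it, 5 were called lower and 1, GAA, higher, and their median log2 fold change was -0.35. Of the 20 members with a promoter but no such letters, 6 were called lower and 8 higher, with a median of 0.012. The 6 include GPNMB, which this contrast chose. Among further lysosomal genes tested, 12 of 18 with the letters were called lower and 1 higher, against 17 lower and 14 higher of 53 without. Over all genes tested, 34.0% of 792 with the letters and 24.8% of 10597 without were called lower. This split was made after the values had been seen and was not tested.

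**Figure D4:**
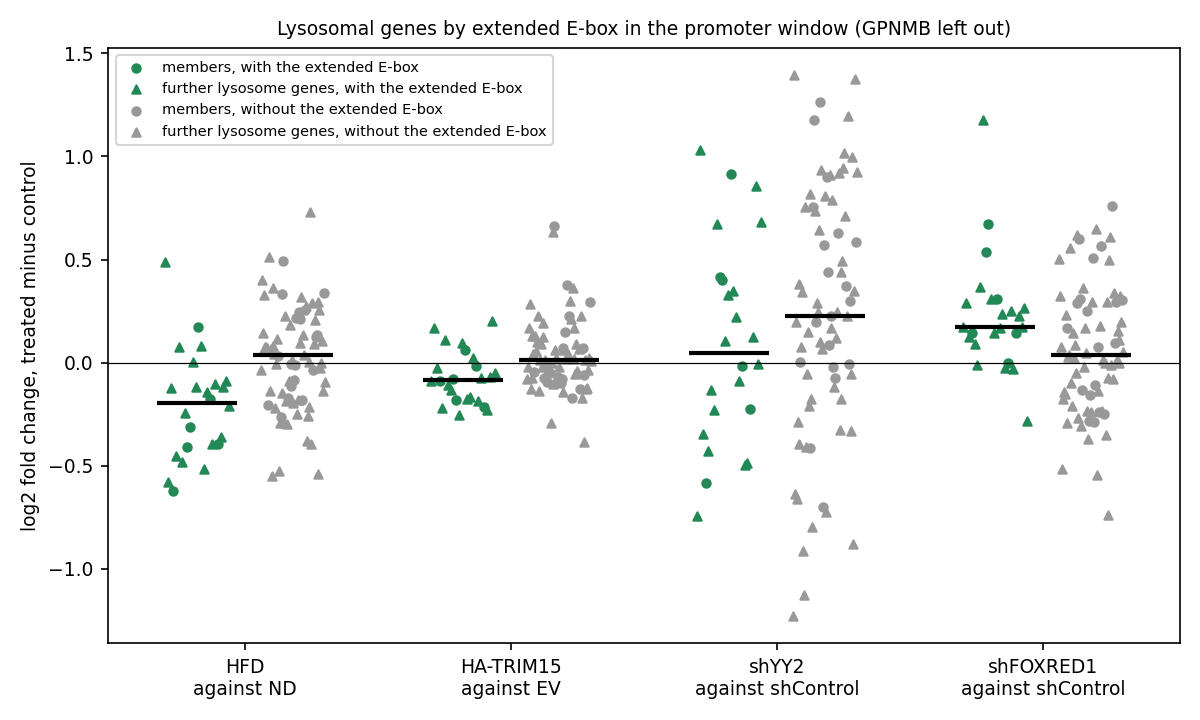
Log2 fold change of treated minus control in the 4 experiments for members (circles) and further lysosomal genes (triangles) with a promoter in the table, in green with the extended E-box and in grey without it. Black bars are medians and GPNMB is left out. In HFD against ND the green points lie mostly below 0, and in shFOXRED1 against shControl mostly above it.

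In the FOXRED1 knockdown no lysosomal gene with the extended E-box was called lower. Of the 6 members with the extended E-box, 3 were called higher (CTSA, CTSD and GAA), and of 18 further lysosomal genes with it, 7 were called higher. Without it, 10 members were called higher and 5 lower of 20, and 13 further genes higher and 11 lower of 52. Over all genes tested with the letters, 22.2% were called higher and 20.6% lower. The 4 members with M-box letters, CD63, CTSA, GPNMB and GRN, were all called higher with shFOXRED1, against 24.7% of 300 genes with those letters. Without those letters, 9 of 22 members and 17.5% of 10571 genes were called higher. The call of CD63 was lost without some single libraries and with DESeq2 (adjusted p = 0.13). Of 10 further lysosomal genes with M-box letters 3 were called higher and 2 lower. By diet, the contrast that chose GPNMB, the other M-box members were CTSA, called lower, and CD63 and GRN, not called. Of all genes with M-box letters, 23.9% were called higher and 32.8% lower there. With HA-TRIM15, 0 of the 4 M-box members were called either way, where 15.4% of genes with those letters were called higher and 9.59% lower. With shYY2, 2 of the 4 were called higher and 1 lower, where 40.7% and 36% were. With shYY2, 3 members with the extended E-box were called higher and 2 lower. Of the 18 further genes with it 8 were called higher and 8 lower, where 34.7% of 784 genes with it were called higher and 43.9% lower. Of genes with AANATGGCG, GUSB was called higher with shYY2, and of 10 further genes 5 were called higher and 3 lower. Over all genes tested, 28.4% of 837 with AANATGGCG were called higher and 52.1% lower, against 37.4% and 41.1% of 10235 without. In the HA-TRIM15 experiment none of the 6 members with the extended E-box was called higher and 1 was called lower. Of the 18 further genes with it none was called higher and 5 lower, where 15.3% of 772 genes with it were called higher and 14.8% lower. These splits by motif, too, were made after the values had been seen and were not tested.

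With shYY2, all 7 cathepsins, all 3 soluble cofactors and 6 of 9 glycan and lipid hydrolases rose. In that experiment 21 members were called higher and 8 lower, where 75% of all 16006 genes tested were called, 36.8% higher and 38.1% lower. The median log2 fold change of the members was 0.21, against -0.0081 over all genes tested. CTSL and CTSB rose the most of the cathepsins. CTSL went from 100.5, 91.1 and 104 CPM to 225, 224 and 220 CPM, a log2 fold change of 1.18 ± 0.040 (adjusted p = 3.9e-13). CTSB went from 461, 454 and 444 CPM to 813, 832 and 783 CPM, or 0.84 ± 0.029 (adjusted p = 5.1e-13). No library of either group came near the other.

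The other cathepsins rose by 0.17 to 0.75 on the log2 scale with shYY2, from CTSS (adjusted p = 0.00078) to CTSH (6.6e-11). The 3 soluble cofactors rose with them. GRN went from 234, 242 and 219 CPM to 435, 447 and 416 CPM (log2 fold change 0.90 ± 0.037, adjusted p = 3.8e-12). NPC2 and PSAP rose by 0.63 ± 0.034 (adjusted p = 9.2e-11) and 0.54 ± 0.027 (3.7e-11). Of the glycan and lipid hydrolases, 6 of 9 rose, led by GAA, which went from 35.6, 35.4 and 33.5 CPM to 64.9, 65.9 and 65.8 CPM (0.91 ± 0.042, adjusted p = 1.4e-11). SGSH (0.73 ± 0.057), GLB1 (0.57 ± 0.033), GUSB (0.44 ± 0.039), HEXA (0.32 ± 0.076) and LIPA (0.23 ± 0.029) rose as well, with adjusted p of 0.0013 or less.

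GLA fell with shYY2, from 40.4, 42.0 and 42.8 CPM to 25.6, 27.1 and 24.4 CPM (log2 fold change -0.70 ± 0.053, adjusted p = 6.6e-09), the largest fall among the members. NAGLU was called lower (-0.17 ± 0.062, adjusted p = 0.024), but not without shControl replicate 3 (0.064), shYY2 replicate 1 (0.064) or shYY2 replicate 3 (0.098). IDS was not called (0.09 ± 0.055, adjusted p = 0.18), and was past the threshold without shControl replicate 1 (0.018).

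Of the 5 V-ATPase members, 4 fell with shYY2 and none rose, while of 14 further V-ATPase genes tested 6 fell and 5 rose. ATP6V0D1 went from 45.1, 45.7 and 41.8 CPM to 28.1, 29.3 and 30.9 CPM (log2 fold change -0.58 ± 0.054, adjusted p = 7.4e-08). ATP6V1A (-0.29 ± 0.040), ATP6V1H (-0.26 ± 0.047) and ATP6V1B2 (-0.24 ± 0.034) fell with adjusted p of 0.00011 or less. ATP6AP1 was level within error (0.0022 ± 0.031, adjusted p = 0.95).

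Membrane proteins were mixed with shYY2. CD63 fell from 271, 258 and 267 CPM to 207, 193 and 199 CPM (log2 fold change -0.41 ± 0.033, adjusted p = 1.2e-08). LAMP2 rose (0.18 ± 0.033, adjusted p = 0.0001) and LAMP1 was not called (-0.02 ± 0.029, adjusted p = 0.61). MCOLN1 was called lower (-0.22 ± 0.088, adjusted p = 0.032), but not without shControl replicate 1 (0.066) or 2 (0.053), nor without shYY2 replicate 2 (0.053) or 3 (0.13).

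Of the autophagy members, 3 of 4 rose with shYY2. GABARAPL1 had the largest change of all members, from 57.7, 57.1 and 63.6 CPM to 145, 141 and 143 CPM (log2 fold change 1.26 ± 0.040, adjusted p = 1.5e-13). WIPI1 (0.58 ± 0.067, adjusted p = 9.7e-07) and SQSTM1 (0.37 ± 0.035, adjusted p = 1e-07) rose too. MAP1LC3B was not called (-0.02 ± 0.031, adjusted p = 0.56). TFE3 (-0.0049 ± 0.035, adjusted p = 0.91) and MITF (-0.08 ± 0.054, adjusted p = 0.22) were not called either.

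**Figure D5:**
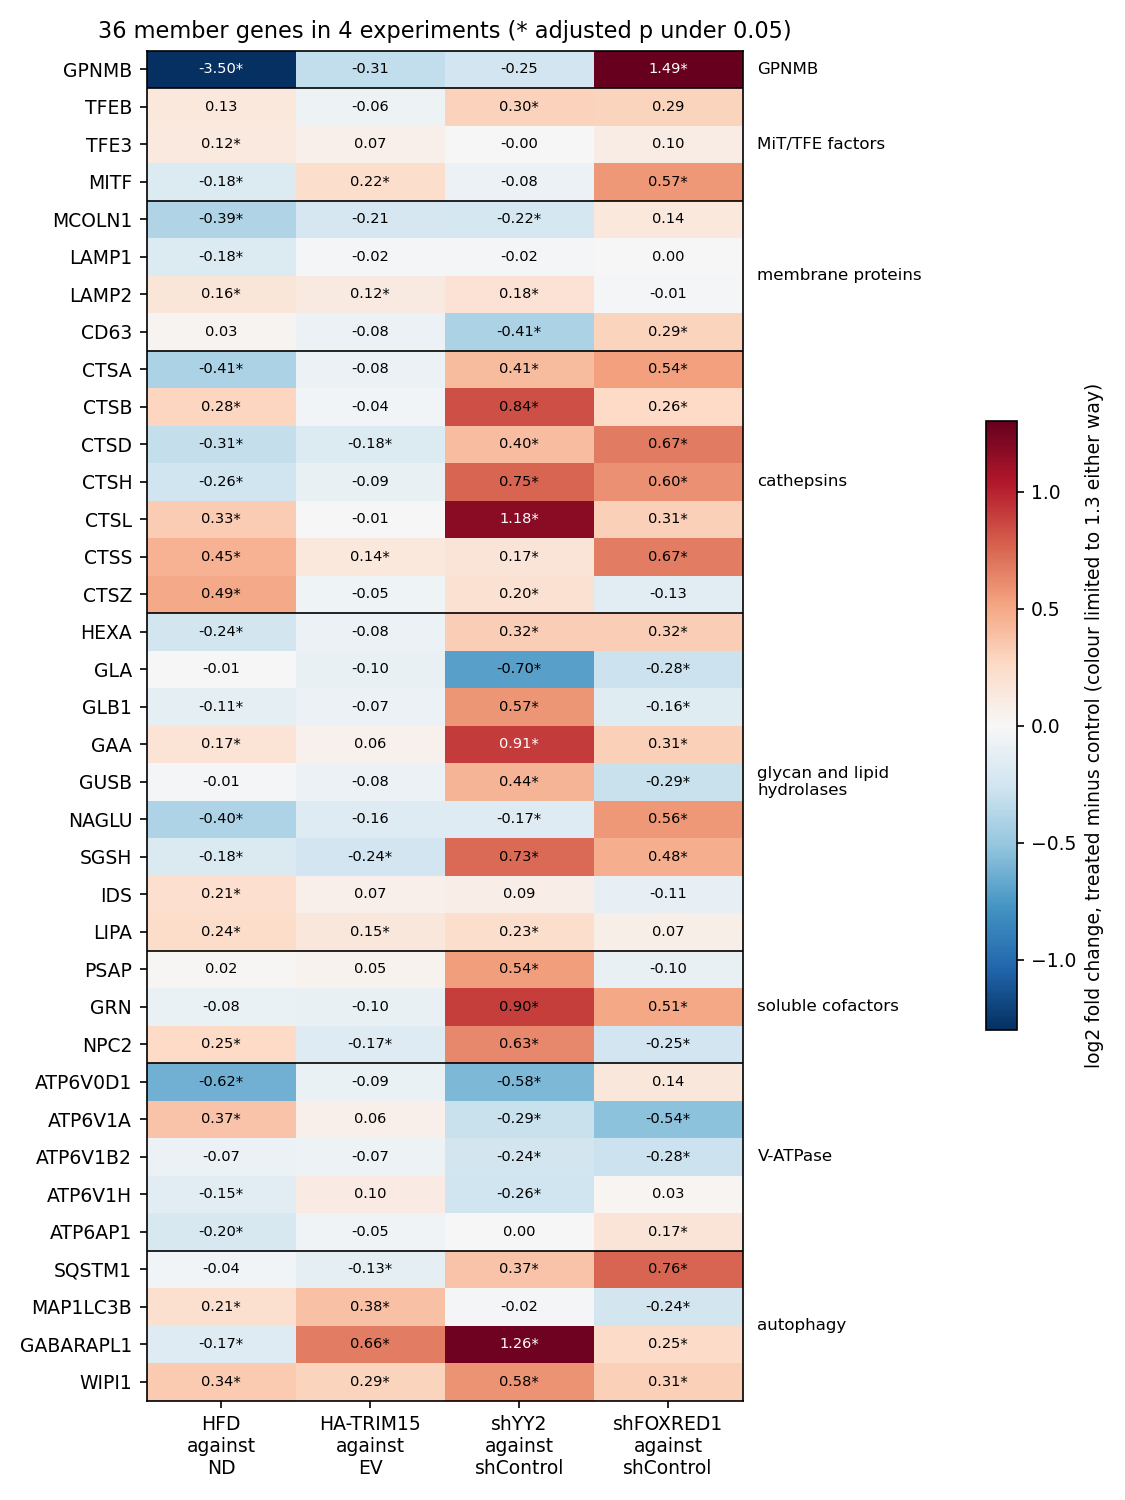
Log2 fold change of treated minus control for the 36 members (rows, by role) in the 4 experiments (columns), with red for higher, blue for lower and a star at an adjusted p under 0.05. With shYY2 the 7 cathepsins are all red and 4 of the 5 V-ATPase members are blue, and GPNMB is dark blue with HFD and dark red with shFOXRED1.

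With shFOXRED1, 18 members were called higher and 7 lower. Over the 15730 genes tested, 36.6% were called, 16.8% higher and 19.7% lower. The median log2 fold change was 0.21 over the members and 0.012 over all genes tested. Of the 7 cathepsins, 6 rose. CTSD went from 196, 181 and 176 CPM to 321, 312 and 248 CPM (log2 fold change 0.67 ± 0.078, adjusted p = 3.1e-06). CTSS went from 58.6, 60.3 and 64.8 CPM to 96.5, 96.3 and 98.7 CPM (0.67 ± 0.063, adjusted p = 2.8e-07). The groups did not overlap for either gene.

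CTSH (0.60 ± 0.057), CTSA (0.54 ± 0.062), CTSL (0.31 ± 0.059) and CTSB (0.26 ± 0.048) rose with adjusted p of 0.00053 or less. CTSZ was not called (-0.13 ± 0.076, adjusted p = 0.19). SQSTM1 went from 852, 843 and 796 CPM to 1499.98, 1449.6 and 1269 CPM (log2 fold change 0.76 ± 0.055, adjusted p = 1.3e-08), second to GPNMB among the members. WIPI1 was called higher (0.31 ± 0.086, adjusted p = 0.0095), but not without shControl replicate 3 (0.055) or shFOXRED1 replicate 2 (0.061). GABARAPL1 was called higher (0.25 ± 0.084, adjusted p = 0.026), but not when any library other than shFOXRED1 replicate 3 was left out (0.063 to 0.13). MAP1LC3B fell (-0.24 ± 0.063, adjusted p = 0.0066).

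Cofactors and hydrolases were split in the FOXRED1 knockdown. GRN rose from 369, 375 and 367 CPM to 547, 533 and 500 CPM (0.51 ± 0.048, adjusted p = 3.3e-07). NPC2 was called lower (-0.25 ± 0.069, adjusted p = 0.0091), but not without shControl replicate 2 (0.054), and PSAP was not called (-0.10 ± 0.043, adjusted p = 0.093). NAGLU (0.56 ± 0.097), SGSH (0.48 ± 0.084) and HEXA (0.32 ± 0.072) rose with adjusted p of 0.0023 or less. GUSB fell (-0.29 ± 0.076, adjusted p = 0.0069). GAA was called higher (0.31 ± 0.082, adjusted p = 0.0070), but its groups overlapped and the call was lost without shControl replicate 3 (0.053). GLA was called lower (-0.28 ± 0.083, adjusted p = 0.013), but not without shControl replicate 1 (0.051) or shFOXRED1 replicate 1 (0.052). GLB1 was called lower (-0.16 ± 0.058, adjusted p = 0.046), but not when any library other than shFOXRED1 replicate 3 was left out (0.069 to 0.20). LIPA (0.07 ± 0.053, adjusted p = 0.30) and IDS (-0.11 ± 0.058, adjusted p = 0.16) were not called.

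Of the V-ATPase members, ATP6V1A fell with shFOXRED1 from 73.2, 67.9 and 78.6 CPM to 48.5, 47.6 and 55.8 CPM (log2 fold change -0.54 ± 0.077, adjusted p = 3.4e-05). ATP6V1B2 fell too (-0.28 ± 0.067, adjusted p = 0.0033). ATP6AP1 was called higher (0.17 ± 0.055, adjusted p = 0.025), but not when any library other than shFOXRED1 replicate 3 was left out (0.060 to 0.11). ATP6V0D1 (0.14 ± 0.067, adjusted p = 0.10) was not called, and was past the threshold without shFOXRED1 replicate 3 (0.046), as was TFE3 (0.10 ± 0.074, adjusted p = 0.33, and 0.026 without it). ATP6V1H was not called (0.03 ± 0.073, adjusted p = 0.79). CD63 was called higher (0.29 ± 0.092, adjusted p = 0.019) although its groups overlapped, at 214, 211 and 156 CPM against 166, 164 and 146 CPM, and not without shControl replicate 3 (0.11) or shFOXRED1 replicate 1 (0.10) or 2 (0.10). MCOLN1 (0.14 ± 0.13, adjusted p = 0.44), LAMP1 (adjusted p = 1.0) and LAMP2 (-0.01 ± 0.060, adjusted p = 0.88) were not called.

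With HA-TRIM15 the set changed least: 7 members were called higher and 4 lower, where 22.1% of 15745 genes tested were called, 12.5% higher and 9.53% lower. The median log2 fold change was -0.056 over the members and -0.0065 over all genes tested. The changes that held whichever library was left out were those of GABARAPL1, MAP1LC3B and CTSD. GABARAPL1 went from 35.3, 37.8 and 35.6 CPM to 57.0, 56.9 and 58.0 CPM (log2 fold change 0.66 ± 0.045, adjusted p = 1.2e-07). MAP1LC3B went from 82.5, 82.2 and 82.7 CPM to 105, 108 and 109 CPM (0.38 ± 0.035, adjusted p = 3.4e-06). CTSD fell from 157, 155 and 155 CPM to 140, 142 and 129 CPM (-0.18 ± 0.039, adjusted p = 0.0040).

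The remaining calls with HA-TRIM15 were each lost when some single libraries were left out. WIPI1 (log2 fold change 0.29 ± 0.081, adjusted p = 0.018) was lost without EV replicate 2 (0.095), EV replicate 3 (0.052) or HA-TRIM15 replicate 3 (0.053). LIPA (0.15 ± 0.037, adjusted p = 0.0092) was lost without EV replicate 1 (0.051) or 3 (0.056). LAMP2 (0.12 ± 0.035, adjusted p = 0.025) was lost when any library other than HA-TRIM15 replicate 1 was left out (0.052 to 0.10), and CTSS (0.14 ± 0.047, adjusted p = 0.041) without any EV library or HA-TRIM15 replicate 3 (0.12 to 0.13). Of the lower members, SGSH (-0.24 ± 0.062, adjusted p = 0.011) and SQSTM1 (-0.13 ± 0.030, adjusted p = 0.0079) were lost without EV replicate 1 (0.054 and 0.052) or HA-TRIM15 replicate 2 (0.061 and 0.051). NPC2 (-0.17 ± 0.050, adjusted p = 0.026) was lost without EV replicate 1 (0.10), EV replicate 3 (0.13) or HA-TRIM15 replicate 2 (0.068). Without HA-TRIM15 replicate 1, 11 members were called lower in place of 4, and without EV replicate 1 or HA-TRIM15 replicate 2 there was 1. The number called higher was 4, 3 and 2 without EV replicates 1, 2 and 3, and 3 without HA-TRIM15 replicate 3. Calls over all genes tested moved as well, from 3474 to 5100 without HA-TRIM15 replicate 1. Without any other single library, 2034 to 2584 genes were called.

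The other 25 members were not called with HA-TRIM15. MCOLN1 came nearest, at 11.3, 11.2 and 11.1 CPM against 13.0, 13.3 and 12.7 CPM, without overlap (-0.21 ± 0.076, adjusted p = 0.058). No V-ATPase member was called, with log2 fold changes from -0.088 to 0.10.

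Across the 4 experiments WIPI1 and CTSS were called higher in every one, as were 0.613% of the 14519 genes tested in all 4. CTSB, CTSL, GAA, LAMP2 and LIPA were called higher in 3 and lower in none, a pattern of 3.18% of those genes. ATP6V0D1, ATP6V1B2, ATP6V1H, GLA and MCOLN1 were called lower in 2 and higher in none, a pattern of 9.68% of them. Some of these calls were lost when a single library was left out. They were those of WIPI1, CTSS, LAMP2 and LIPA with HA-TRIM15, of WIPI1, GAA and GLA with shFOXRED1, of ATP6V1H by diet and of MCOLN1 with shYY2. Each experiment had its own control libraries.

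A wider list of 95 further lysosomal genes, again other hydrolases, membrane proteins, sorting receptors, pump subunits, autophagy genes and regulators of the MiT/TFE factors, was read in the same way. In the diet comparison 21 of 90 tested were called higher and 35 lower, and the median log2 fold change was -0.030. The shares over all genes tested were 25.6% higher and 23.9% lower, with a median of -0.012. Of the 30 further hydrolases tested, 13 were called lower and 5 higher, and of the 6 genes that deliver enzymes to the lysosome, 5 lower and 1 higher. Of 14 further V-ATPase genes, 5 were called lower and 4 higher, and of 17 further autophagy genes, 4 each way. The largest rise was that of SLC17A5, the lysosomal exporter of sialic acid, at 65.4, 65.3 and 68.6 CPM in HFD against 41.5, 38.9 and 40.1 CPM in ND (log2 fold change 0.73 ± 0.043). RRAGD, a Rag GTPase that links TFEB to mTORC1, had a log2 fold change of 0.59 ± 0.18. It was low, with 33 to 69 counts per HFD library and 25 to 69 per ND library. ATG14, which targets a lipid kinase to autophagosomes, was at 24.9, 23.8 and 26.9 CPM against 39.7, 37.8 and 36.2 CPM (-0.58 ± 0.056). ATP6V0C, the proton-carrying ring subunit of the pump, had -0.55 ± 0.22 with libraries that overlapped, at 9.78, 5.95 and 14.8 CPM against 11.8, 20.4 and 13.8 CPM.

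With shYY2, 51 of 89 further genes were called higher and 25 lower, the median log2 fold change was 0.22, and 22 of 30 further hydrolases rose. The shares over all genes tested were 36.8% higher and 38.1% lower, with a median of -0.0081. CTSK, a collagen-degrading cathepsin, went from 3.62, 5.61 and 4.69 CPM to 16.8, 16.5 and 16.5 CPM (log2 fold change 1.84 ± 0.12, adjusted p = 7.7e-10). RRAGD rose from 0.659, 0.295 and 0.403 CPM to 3.35, 1.98 and 2.00 CPM (2.40 ± 0.32, adjusted p = 4.5e-06), a rise that starts from 5 to 12 counts per library. ACP2, a lysosomal acid phosphatase, fell from 36.4, 35.6 and 31.4 CPM to 13.8, 15.7 and 14.5 CPM (-1.23 ± 0.072, adjusted p = 2.8e-10). ATP6V0C fell too (-1.13 ± 0.23, adjusted p = 0.00030).

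With shFOXRED1, 26 of 89 further genes were called higher and 15 lower, with a median of 0.087. The shares over all genes tested were 16.8% higher and 19.7% lower, with a median of 0.012. SCARB2, a lysosomal membrane protein and sorting receptor, fell from 345, 340 and 336 CPM to 199, 197 and 216 CPM (log2 fold change -0.74 ± 0.052, adjusted p = 9.5e-09). CTSK (0.80 ± 0.21, adjusted p = 0.0059) and CLN3, a lysosomal membrane protein of Batten disease (1.18 ± 0.40, adjusted p = 0.030), were called higher. CLN3 was low, with 5 to 22 counts per shControl library and 24 to 39 per shFOXRED1 library.

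With HA-TRIM15, 9 of 89 further genes were called higher and 10 lower, with a median of 0.0069. These counts were near the shares over all genes tested, 12.5% higher and 9.53% lower, with a median of -0.0065. The autophagy receptors OPTN (0.36 ± 0.040, adjusted p = 1.6e-05) and NBR1 (0.30 ± 0.032, adjusted p = 1.3e-05) rose, and 6 of 17 further autophagy genes were called higher against 1 lower. FLCN, which holds TFE factors in the cytoplasm (-0.29 ± 0.070, adjusted p = 0.0076), and TMEM175, a lysosomal ion channel (-0.38 ± 0.10, adjusted p = 0.016), were called lower. The counts of further genes changed when single libraries were left out. Without HA-TRIM15 replicate 1, 17 were called higher. The number called lower was 3, 5 and 3 without EV replicates 1, 2 and 3, and 6 and 3 without HA-TRIM15 replicates 2 and 3. Calls over all genes ranged from 2034 to 5100 in these fits, against 3474 with all libraries.

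Some members share exon sequence with other genes, and how reads were divided between them is not given in the sources used here. In GENCODE 29, 41.7% of the exon length of CTSD lies in exons of the gene AC068580.4 on the same strand. Same-strand sharing also covers 16.5% of IDS (with AC244197.3) and 12.6% of NAGLU (with AC067852.1). Shared exons on the opposite strand cover 24.3% of WIPI1 (with ARSG), 20.7% of SQSTM1 (with MRNIP) and 17.7% of CTSA (with NEURL2). The near-copy MAP1LC3B2 had 31 to 116 counts per library against 1188 to 4311 for MAP1LC3B, IDSP1 had 5 to 55 against 641 to 2095 for IDS, and GABARAPL3 had at most 1. GPNMB shared no exon bases with another gene.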

How the data were processed

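For each experiment the authors deposited 1 table of raw read counts by gene, in whole numbers and not normalized. The labels name the directional NEBNext kit and the methods the NEBNext Ultra kit, and sequencing was paired-end on a DNBSEQ instrument. The submitters' processing notes name the builds hg38 and mm10 with no role. The aligner, the counter and the strand setting are not given in the sources used here.

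All 24 libraries were used and grouped by their labels. Genes were filtered with filterByExpr (minimum count 10, minimum total 15), normalized by TMM and compared with edgeR 4.0.16 (R 4.3.3; glmQLFit, glmQLFTest), and p-values were adjusted by Benjamini-Hochberg over every tested gene, with a threshold of 0.05. "Called" means past this threshold, and "rose" or "fell" in the culture experiments mean the same. The SE was taken as the size of the log2 fold change over the root of F. CPM use TMM-scaled totals, and exon lengths are from GENCODE 29. The procedure was tested on simulated counts. No replicate pair agreed within sampling noise. The pairs furthest apart were those of shFOXRED1 replicate 3. Their mean squared deviation over its sampling variance was 7.94 and 6.90 per gene, against 2.16 for shFOXRED1 replicates 1 and 2. Without shFOXRED1 replicate 3, calls over all genes in that experiment went from 5752 to 6853. Symbols matched 99.8% of rows.

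The members, lists and tests were chosen with earlier results of these data known. Named are all 36 members and, of the further genes, by experiment the 2 that rose most and the 2 that fell most of those called and averaging at least 1 CPM, besides the targeted genes, cell type markers and near-identical copies. A gene that this rule names is not reported here. Alternatives were RLE size factors, no filter, at least 10 counts in every library, DESeq2 1.42.0, a replicate block and leaving out each library. The promoter search was added after the values had been seen.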

Additional observations from a re-analysis of the deposited data

How the results depend on the processing

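Of the member calls, 22 of 28 in HFD against ND, 3 of 11 with HA-TRIM15, 27 of 29 with shYY2 and 17 of 25 with shFOXRED1 held under all 11 alternatives, and no called member changed direction. The rise of GPNMB with shFOXRED1 held under all of them, with a log2 fold change of 1.40 to 1.60. Without a filter on low counts the median over further lysosomal genes was -0.0031 with HA-TRIM15, 0.24 with shYY2 and 0.082 with shFOXRED1. With at least 10 counts in every library it was 0.099 with shFOXRED1, and the members' median with shYY2 was 0.24. DESeq2 called 6 further genes lower with HA-TRIM15 in place of 10. Leaving out each library in turn, members called with HA-TRIM15 ranged from 2 to 8 higher and from 1 to 11 lower, and further genes from 6 to 17 higher and from 3 to 14 lower. Calls over all genes with HA-TRIM15 ranged from 2034 to 5100 in these fits, against 3474. The further genes' median then ranged from -0.057 to -0.020 in HFD against ND, from -0.0081 to 0.010 with HA-TRIM15, from 0.20 to 0.23 with shYY2 and from 0.069 to 0.089 with shFOXRED1. The cause of these differences was not tested. Calls lost without a filter were those of MITF and GLB1 by diet, LAMP2 and CTSS with HA-TRIM15, MCOLN1 with shYY2 and GLB1 with shFOXRED1. With DESeq2 the calls of MITF and GLB1 by diet, CTSS and MITF with HA-TRIM15, MCOLN1 and NAGLU with shYY2 and GLB1 and CD63 with shFOXRED1 were lost. Where 2 libraries remained in a group, the spread was estimated over 5. Without a filter the median over all genes tested was 0.10 with shFOXRED1, against 0.012.

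The replicate numbers are shared between groups, but the labels do not say that they mark a culture, litter or day. The deviations of same-numbered libraries from their group means correlated at -0.071 to 0.16, in no experiment above 0.1 for all 3 numbers, and 3 of 6 libraries at most matched their own number best. With a replicate block the calls over all genes with shFOXRED1 went from 5752 to 6793, and 19 members were called higher and 9 lower. TFEB (adjusted p = 0.027), CTSZ (0.018) and PSAP (0.013) passed the threshold there, CTSS lost it with HA-TRIM15 (0.056), and no other member's call changed.

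GPNMB had 23 to 88 counts per culture library.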
